A study of Rattus norvegicus with 12 samples.

Results

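The comparison described here is nintedanib against vehicle in rats given bleomycin. It was read from 8 of the 12 lung libraries of the study, taken by the group in the sample labels: 4 animals of the NINT group and 4 of the BLM group. All 8 were male Sprague-Dawley rats given bleomycin into the trachea at 1 U/kg on day 0 and day 4. From day 7 the BLM animals received the oral vehicle, methylcellulose, and the NINT animals received nintedanib at 100 mg/kg by mouth, daily for 3 weeks. Animals were killed on day 28. The other 4 animals, the SAL group, received saline into the trachea and the oral vehicle, and they served here for the shared estimate of spread and as values set beside those of the bleomycin groups. The drug group thus had no counterpart given nintedanib without bleomycin, and each library was 1 animal's homogenised right lung. In such bulk tissue, fewer cells of a type and less RNA per cell cannot be told apart.

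Bleomycin breaks DNA, and its instillation into the airway injures the alveolar epithelium and is followed by inflammation and by deposition of collagen-rich matrix. Nintedanib is an oral inhibitor of the receptor tyrosine kinases for platelet-derived, vascular endothelial and fibroblast growth factors, through which fibroblasts and endothelial cells receive signals to divide, migrate and survive, and it is used to treat lung fibrosis. The drug was started on day 7, after the second instillation on day 4.

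The table of counts carries Ensembl gene identifiers and no gene symbols, and 0 of the 32623 identifiers matched the reference table of gene names. No gene could be given a name with certainty, so identifiers are printed as such and nothing is stated of their function, location or sequence, nor could the lung origin of the libraries be checked against marker genes. Library totals were 17697037 to 21719946 counts in the 8 libraries, with 18293 to 19138 identifiers detected, the fewest in BLM replicate 3, which also had the largest total. BLM replicate 3 was the bleomycin animal furthest from the NINT group, but the BLM animals were spread even without it. Its root mean square distance in log2 CPM (CPM being counts brought to a common normalized library size) was 0.78 on average from the other BLM animals (0.61 to 0.92) and 0.94 from the NINT animals (0.90 to 1.00). The other 3 BLM animals lay 0.52 from each other (0.39 to 0.64) and 0.55 from the NINT animals on average (0.45 to 0.73), and the NINT animals lay 0.42 to 0.46 from each other.

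Under nintedanib 355 identifiers were higher and 517 lower than under vehicle, of 14956 tested, by edgeR's quasi-likelihood test on all 12 libraries (called at an adjusted p-value under 0.05). These were 2.37% and 3.46% of the identifiers tested, 5.83% together, and 28.5% of those tested had p under 0.05 before adjustment. The median size of the log2 fold change was 0.76 among the rises and 0.52 among the falls. A change of at least 1 on the log2 scale was reached by 106 rises and 107 falls, and one of at least 2 by 14 rises and 20 falls. Without BLM replicate 3 the same test called 308 identifiers (2.06%), 173 higher (1.16%) and 135 lower (0.903%), so rises then outnumbered falls. This was not particular to that animal. Rises also outnumbered falls without SAL replicate 1 (274 against 257), 2 or 3, and without NINT replicate 1 (116 against 85), 2 or 4. Falls outnumbered rises without BLM replicate 1, 2 or 4, NINT replicate 3 or SAL replicate 4. In the 8 bleomycin libraries alone 27 were called (0.181%), 23 higher and 4 lower, and limma voom with group weights, which lets the groups differ in spread, called 147 (0.983%), of which 51 were higher and 96 lower.

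The values of the 4 NINT animals and the 4 BLM animals did not overlap for 331 of the 355 rises and 488 of the 517 falls. Among all identifiers tested 16.0% did not overlap, 6.27% with NINT higher and 9.68% with NINT lower. Called identifiers covered the whole range of abundance, and the called share was larger at higher abundance. It was 2.18% of identifiers averaging under 1 CPM over both groups, 4.16% at 1 to 10 CPM, 7.16% at 10 to 100 CPM, 8.39% at 100 to 1000 CPM and 15.4% at 1000 CPM or more. Rises outnumbered falls at 1 to 10 CPM (113 against 91), while falls outnumbered rises at 10 to 100 CPM (331 against 156).

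The dependence of each call on BLM replicate 3 was read from the fit without this animal. Leaving out any animal also lowers the replication of the test, so a lost call alone does not show dependence on this animal. All 872 called identifiers kept their direction without this animal, and in edgeR's quasi-likelihood test all had p under 0.05 before adjustment. They were chosen in a fit that shared all the other animals, so this outcome was largely set by the choice. Of all 14956 identifiers tested, 13356 kept their direction and 3394 had p under 0.05 in that test. Adjusted p-values of the 872 without this animal were at most 0.123. Of the 872, 279 were still called, 152 rises (42.8% of the rises) and 127 falls (24.6% of the falls). A smaller share of falls than of rises was also left without each SAL or NINT animal. Examples are 49.3% against 73.8% without SAL replicate 1 and 8.12% against 10.1% without NINT replicate 3. It was the other way without BLM replicate 1, 2 or 4. Without BLM replicate 3 rises changed little in size. The median rise kept 93.9% of its log2 fold change (quartiles 86.0% and 102%), and 100 of 355 were larger. Falls shrank more: the median fall kept 80.2% (quartiles 73.5% and 87.6%), and 23 of 517 were larger without it. Over all identifiers tested the median was 78.8% for those higher in NINT and 72.3% for those lower, where many changes are near 0. The range among the called was 75.1% to 131% for rises and 46.7% to 115% for falls, and 152 falls but 0 rises kept less than 75%. No test of the difference between rises and falls was made, since both were chosen with BLM replicate 3 included.

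**Figure D1:**
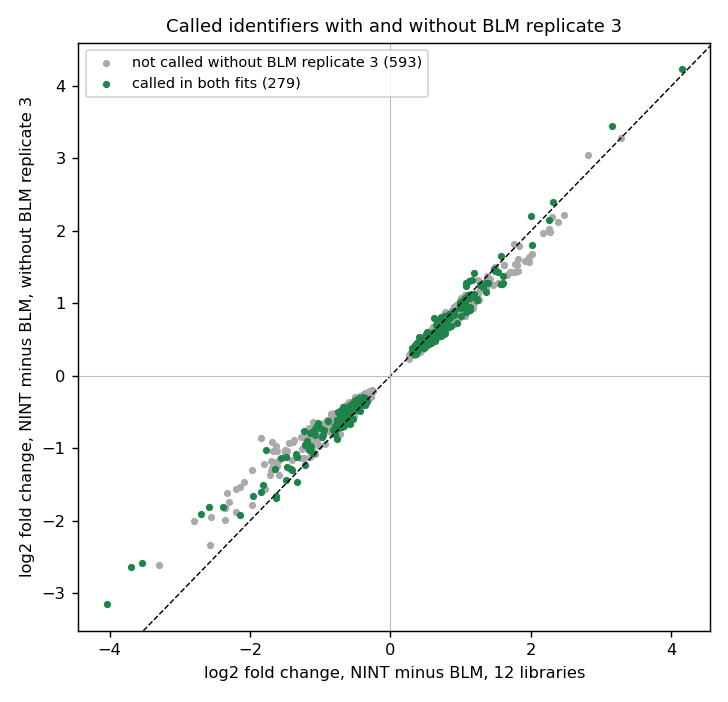
Each point is 1 of the 872 identifiers called in NINT against BLM, with its log2 fold change in the fit of all 12 libraries (horizontal) and in the fit without BLM replicate 3 (vertical); the dashed line marks equal values, and green points are the 279 called in both fits. Most rises and most falls lie nearer to 0 than the line, the falls by more (median 80.2% of the change left, against 93.9% for rises).

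Large changes kept somewhat less of their size than small ones in both directions. Falls of at least 1 on the log2 scale kept a median of 76.3% and smaller falls 80.8%, and rises kept 91.9% and 96.1%. Large falls were nevertheless still called more often, 36.4% against 21.5% of the smaller falls. In 22 of the 107 large falls BLM replicate 3 held more than 2 times the CPM of the next highest BLM animal, 20.6% against 2.39% of all identifiers with a lower mean in NINT, and its median ratio to the mean of the other 3 was 2.04. Over all 517 falls this median ratio was 1.23, and over all identifiers tested with a lower mean in NINT it was 1.13. Among rises of at least 1 the median ratio was 0.68, against 0.79 over all identifiers tested with a higher mean in NINT. In 17 of these 106 rises (16.0%) BLM replicate 3 was under 0.5 times the next lowest BLM animal, as it was in 11.3% of all identifiers higher in NINT. Over all 355 rises this share was 5.07%, and over all 517 falls the share with more than 2 times the next highest was 4.26%. Rises of at least 1 thus lay further out than all identifiers tested in both respects, but by less than falls of at least 1. Abundant identifiers differed in the same way by direction. All 7 rises averaging 1000 CPM or more were still called without BLM replicate 3, with a median of 96.4% of their log2 fold change left, whereas 1 of the 9 falls of that abundance was, with a median of 72.3% left. Most of these 7 rises were highest in BLM replicate 1 and lowest in BLM replicate 2 among the BLM animals. Whether they are separate changes was not tested.

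The largest rise was that of ENSRNOG00000038132. It stood at 34.2, 19.2, 41.1 and 27.0 CPM in NINT replicates 1 to 4, against 2.32, 2.29, 1.90 and 0.346 CPM in BLM replicates 1 to 4 and 0.643, 2.67, 0.971 and 3.14 CPM in SAL replicates 1 to 4. Each NINT animal was far above each of the other 8 animals, and BLM replicate 3 lay within the range of its group. The means were 30.4 ± 9.43 CPM in NINT and 1.71 ± 0.931 CPM in BLM (SD, n = 4 each), a 17.7-fold difference. NINT exceeded BLM by 4.15 on the log2 scale (SE 0.50, edgeR adjusted p = 0.00435) with all 12 libraries and 4.23 (SE 0.53, edgeR adjusted p = 0.00449) without BLM replicate 3. Counts were as low as 7 reads in the bleomycin libraries, so the size of the fold carries the counting error of the low group. Its difference between BLM and SAL was -0.14 on the log2 scale (SE 0.53, edgeR adjusted p = 0.856) and that between NINT and SAL was 4.01 (SE 0.50, edgeR adjusted p = 0.000755).

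ENSRNOG00000045989 was the rise with the smallest p-value in the fit without BLM replicate 3. Its abundance was 709, 482, 634 and 578 CPM in NINT replicates 1 to 4 and 303, 220, 227 and 245 CPM in BLM replicates 1 to 4. The lowest NINT animal exceeded the highest BLM animal, as the choice of identifiers required, and BLM replicate 3 was the second lowest of its group. The SAL animals held 498, 503, 443 and 440 CPM, between both bleomycin groups in their mean and overlapping NINT at its lowest animal. Means of 4 animals with their SD were 601 ± 95.6 CPM for NINT, 249 ± 37.5 CPM for BLM and 471 ± 34.2 CPM for SAL. The rise under nintedanib was 1.27 on the log2 scale (SE 0.13, edgeR adjusted p = 0.0027) and 1.25 (SE 0.14, edgeR adjusted p = 0.00449) without BLM replicate 3. In the 8 bleomycin libraries alone it was 1.28 (SE 0.14, edgeR adjusted p = 0.0258). The change from SAL to BLM was -0.92 (SE 0.13, edgeR adjusted p = 0.000568), and the difference between NINT and SAL was 0.35 (SE 0.12, edgeR adjusted p = 0.0927). These contrasts share animals and are given side by side.

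The largest fall among identifiers averaging at least 5 CPM without overlap was that of ENSRNOG00000053494. BLM replicates 1 to 4 held 30.1, 17.5, 228 and 83.8 CPM, and NINT replicates 1 to 4 held 8.04, 2.52, 10.5 and 6.83 CPM. BLM replicate 3 held 5.21 times the mean of the other BLM animals, yet each of these also exceeded the highest NINT animal. The SAL animals lay between 1.43 and 3.52 CPM, so that only NINT replicate 2 was within their range. The mean of BLM was 12.9 times that of NINT with all 4 animals and 6.29 times without BLM replicate 3 (43.8 ± 35.2 CPM, SD, n = 3). On the log2 scale the change was -3.69 (SE 0.71, edgeR adjusted p = 0.0256) and became -2.64 (SE 0.50, edgeR adjusted p = 0.0292) without that animal, 71.6% of its size. It was not called in the 8 bleomycin libraries alone (edgeR adjusted p = 0.0874), nor in the fits that left out NINT replicate 1, 2, 3 or 4 (edgeR adjusted p = 0.0504, 0.085, 0.0622 and 0.0548).

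ENSRNOG00000034290 was the fall with the smallest p-value in the fit without BLM replicate 3. Abundances in BLM replicates 1 to 4 were 109, 75.8, 179 and 148 CPM, and those in NINT replicates 1 to 4 were 24.3, 18.7, 38.1 and 34.4 CPM. The lowest BLM animal was above the highest NINT animal, again as the choice required. BLM replicate 3 was the highest of its group at 1.61 times the mean of the others. SAL animals held 31.8, 37.4, 42.8 and 44.8 CPM, which overlapped NINT and not BLM. Means of 4 animals with their SD were 28.9 ± 8.94 CPM for NINT, 128 ± 44.9 CPM for BLM and 39.2 ± 5.87 CPM for SAL. On the log2 scale the change of -2.15 (SE 0.27, edgeR adjusted p = 0.00441) became -1.92 (SE 0.25, edgeR adjusted p = 0.00449) without BLM replicate 3, 89.6% of its size. From SAL to BLM the identifier had changed by 1.70 (SE 0.26, edgeR adjusted p = 0.00102), and NINT differed from SAL by -0.44 (SE 0.26, edgeR adjusted p = 0.277).

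**Figure D2:**
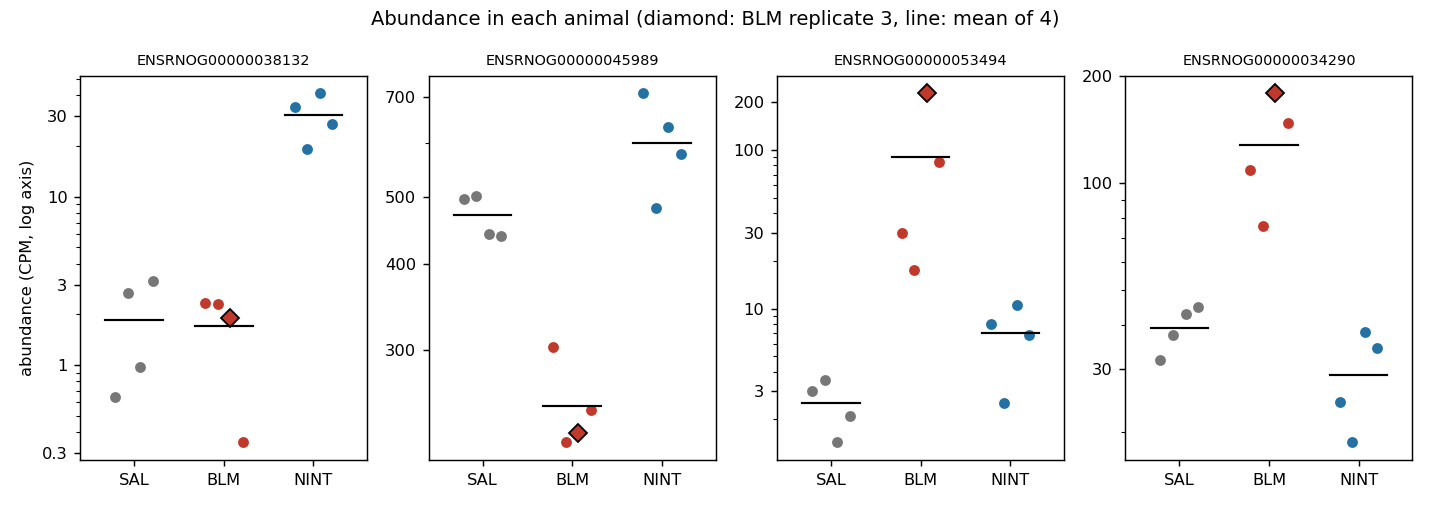
Abundance in CPM (log axis, scaled separately in each panel) of 4 identifiers in each of the 12 animals by group; each point is 1 animal, the diamond is BLM replicate 3 and the line is the mean of 4 animals. In each panel the 4 NINT animals lie clear of the 4 BLM animals, which the choice of these identifiers required. The diamond is the highest BLM animal in both falls and lies within the BLM range in both rises.

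The 10 largest changes in each direction included 3 of these 4 identifiers. Among called identifiers averaging at least 5 CPM in NINT or BLM and without overlap (713 in all), the 10 largest rises ranged from 1.47 to 4.15 on the log2 scale. Their group means were 6.26 to 75.4 CPM in NINT and 1.56 to 26.2 CPM in BLM. BLM replicate 3 was the lowest BLM animal in 2 of these 10, and 84.2% to 110% of the log2 fold change was left without it, with 8 of 10 still called. The 10 largest falls ranged from -3.69 to -2.15, with means of 11.8 to 143 CPM in BLM and 2.03 to 31.3 CPM in NINT. BLM replicate 3 was the highest BLM animal in all 10, 69.5% to 89.6% of the log2 fold change was left without it, and 6 of 10 were still called.

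Over all calls, BLM replicate 3 was the BLM animal furthest from NINT in 409 of the 517 falls (79.1%) and in 189 of the 355 rises (53.2%). Over all identifiers tested it was the furthest in 53.2% of those lower in NINT and in 55.0% of those higher, so the share among rises was near the background and that among falls above it. BLM replicate 2 was the opposite case. It was the BLM animal nearest NINT in 310 falls (60.0%) and 186 rises (52.4%), against 41.9% and 48.2% of all identifiers tested in each direction. On the NINT side, replicate 2 was the animal furthest from BLM in 189 rises (53.2%) and 222 falls (42.9%), against 41.1% and 35.6% of all tested. These shares describe the called identifiers and are no test, because the same animals made the calls.

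**Figure D3:**
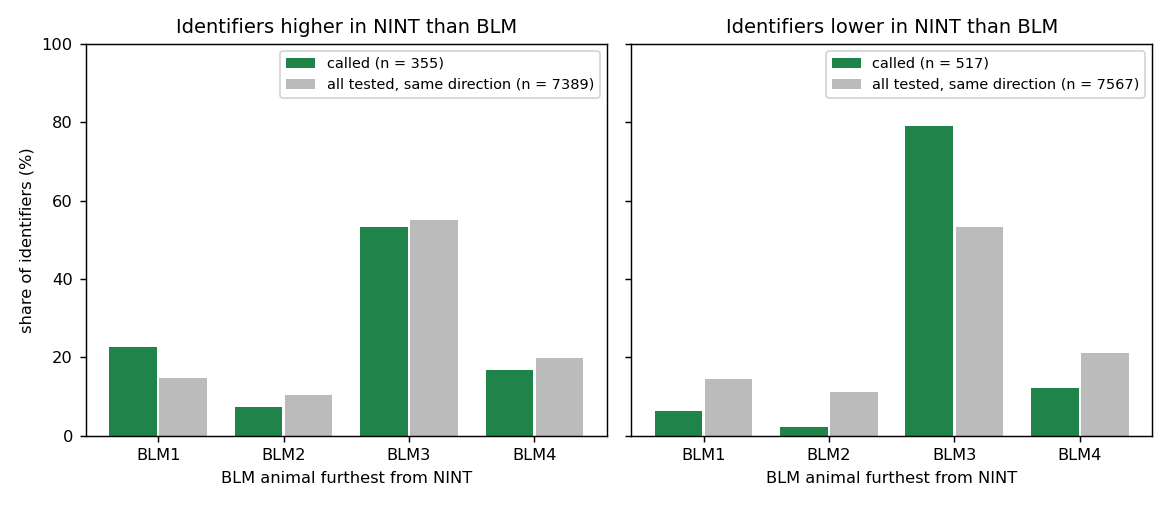
Share of identifiers (%) for which each BLM animal was the one furthest from NINT, that is lowest for identifiers higher in NINT (left) and highest for those lower in NINT (right); green bars are called identifiers and grey bars all identifiers tested with that direction. BLM replicate 3 has the tallest bar in both panels, at 79.1% of the called falls against 53.2% of all identifiers lower in NINT.

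Calls were also lost when animals other than BLM replicate 3 were left out. Of the 872 calls, 346 were made without BLM replicate 1, 870 without BLM replicate 2, 279 without BLM replicate 3 and 188 without BLM replicate 4. Without NINT replicates 1, 2, 3 and 4 in turn, 191, 17, 78 and 115 were made. Leaving out a SAL animal, which enters this contrast only through the shared spread and the scaling, left 517, 255, 390 and 310 for SAL replicates 1 to 4. In each of these 12 fits all 872 identifiers kept their direction, and in edgeR's quasi-likelihood test all had p under 0.05 before adjustment. Each fit shared its animals with the one that chose the 872, so this too was largely set by the choice. Of all identifiers tested, 3114 to 5617 had p under 0.05 in these fits. Fewer of the calls were left without BLM replicate 4, SAL replicate 2 or any 1 NINT animal than without BLM replicate 3. The fit without BLM replicate 2 called 2904 identifiers (19.4%), 1414 higher and 1490 lower.

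The median size of the falls moved more with BLM replicate 3 than with the other bleomycin animals. Leaving it out left a median of 80.2% of the log2 fold change of the falls. Leaving out any of the other 7 bleomycin animals left 95.9% (without NINT replicate 2) to 111% (without BLM replicate 2). For the rises the lowest medians were 93.3% without NINT replicate 2 and 93.9% without BLM replicate 3, and the highest was 108% without BLM replicate 2. The median size of the rises moved most with BLM replicate 2.

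**Figure D4:**
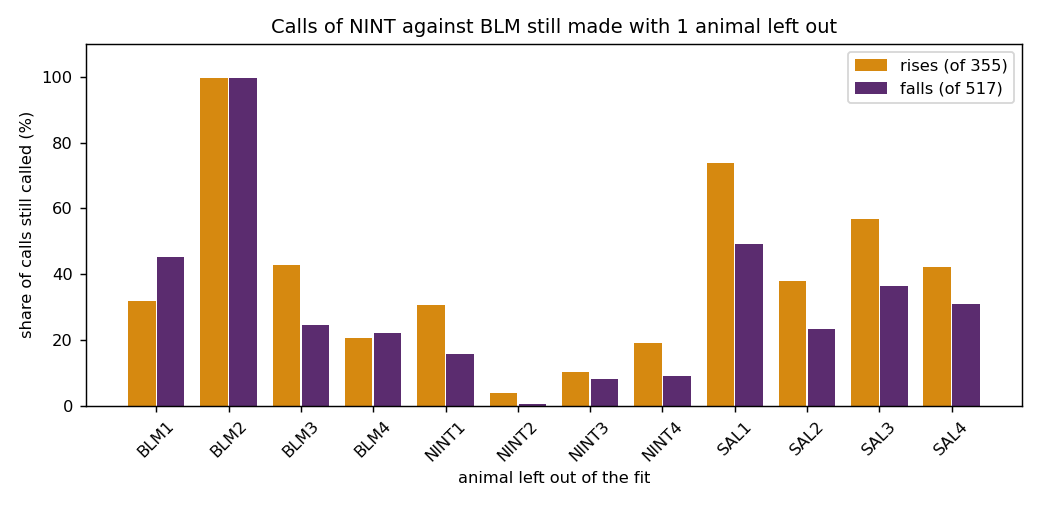
Share (%) of the 355 rises and 517 falls of NINT against BLM that were still called when 1 animal was left out of the fit; each pair of bars is the animal named on the horizontal axis. The share was lowest without NINT replicate 2 (3.94% of rises, 0.580% of falls) and highest without BLM replicate 2 (99.7% and 99.8%); without BLM replicate 3 it was 42.8% and 24.6%.

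A small set of changes was called whichever of the 8 bleomycin animals was left out. It held 17 of the 14956 identifiers tested, 14 rises and 3 falls. These 17 were all the calls of the fit without NINT replicate 2, the fit with the fewest calls. Not all 17 were called in the 8 bleomycin libraries alone (highest edgeR adjusted p = 0.072). ENSRNOG00000038132, ENSRNOG00000045989 and ENSRNOG00000034290 were among the 17. The changes of the 17 were at least 0.59 on the log2 scale. None of the 17 overlapped between NINT and BLM, as was so for 819 of the 872 called identifiers. Without BLM replicate 3, 84.1% to 109% of the log2 fold change was left. These traits were largely set by the choice, since all 17 were picked as called in each of these fits. A related set of 24 identifiers, 20 rises and 4 falls, was called with all 12 libraries, without BLM replicate 3 and in the 8 bleomycin libraries alone. Of these 24, 10 averaged at least 100 CPM and 3 at least 1000 CPM. BLM replicate 3 was the BLM animal furthest from NINT in 12 of the 24, in all 4 falls and in 8 of the 20 rises.

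Leaving out BLM replicate 3 also brought in 29 identifiers that were not called with it, 21 higher and 8 lower in NINT. In the 7 bleomycin libraries that remain without it and without SAL, 34 identifiers were called (0.227%), 23 higher and 11 lower, and 20 of these were among the 27 called with all 8.

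BLM animals varied more among themselves than NINT animals, and less so without BLM replicate 3. The median SD of log2 CPM over all identifiers tested was 0.26 among the 4 BLM animals, 0.17 among the NINT animals and 0.16 among the SAL animals, and 0.20 among the 3 BLM animals without replicate 3. For the called falls it was 0.20 in BLM, 0.14 without BLM replicate 3 and 0.13 in NINT. For the called rises it was 0.27 in BLM, 0.20 without BLM replicate 3 and 0.21 in NINT. The BLM spread exceeded the NINT spread in 396 of the 517 falls and in 220 of the 355 rises (76.6% and 62.0%), against 71.6% of all identifiers tested. The test on all 12 libraries gave the groups 1 estimate of spread per identifier, which includes the less variable SAL animals. It had 9 residual degrees of freedom (libraries less groups), against 6 for the 8 bleomycin libraries alone, which gave 27 calls. In edgeR's quasi-likelihood test on those 8 libraries all 872 identifiers had p under 0.05 before adjustment, as had 3347 of the 14956 tested. Adjusted p-values of the 872 were at most 0.148. The 872 were chosen with these same 8 libraries included, so this is no separate test.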

How the data were processed

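Lung RNA of 12 rats was sequenced from the transcript 3′ end (QuantSeq FWD), per the labels' protocols. The authors deposited raw counts per Ensembl gene identifier, 1 column per animal. The submitters' processing notes name FastQC, STAR, HTSeq and the rn6 build. Versions, roles, annotation and use of strand are not given in the sources used here, so overlapping or near-identical genes could share reads. Some called rises, including rises of at least 1 on the log2 scale, held the same CPM as another called identifier in all 12 libraries. Counts of called identifiers are therefore not counts of separate changes. Why these values were the same was not tested. The 7 empty columns were not used.

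Counts were analysed in R 4.3.3. Identifiers passing edgeR's filterByExpr (minimum count 10, minimum total 15) numbered 14956 of the 23413 with a count. The main test was the quasi-likelihood test of edgeR 4.0.16 (TMM factors, 1 coefficient per group, all 12 libraries, no covariates) with Benjamini-Hochberg adjustment and a threshold of 0.05. It was repeated without each animal in turn. Alternatives used other scalings, filters and fits, DESeq2 1.42.0 and limma 3.58.1. Procedures were tested on simulated data. Distances and spread used log2 CPM with a prior count of 2. No batch is labelled.

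The naming rule took called identifiers averaging at least 5 CPM in NINT or BLM without overlap. The largest rise and fall were printed, and the rise and fall with the smallest p-value without BLM replicate 3 among those also called there and in the 8 bleomycin libraries alone. Without symbols at most 2 identifiers are printed per direction, and the 23 gene and marker lists were not run. The comparison, lists and rule were chosen with earlier results of these data known.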

Additional observations from a re-analysis of the deposited data

How the results depend on the processing

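The 872 calls (355 higher, 517 lower) numbered 1960 (908 and 1052) with the DESeq2 Wald test, 147 (51 and 96) in limma voom using group weights and 27 (23 and 4) in the 8 bleomycin libraries alone. They numbered 34 (23 and 11) in the 7 bleomycin libraries without BLM replicate 3, an alternative chosen after seeing the data, and 213 (106 and 107) with a log2 fold change of at least 1 required. Without a filter on low counts the falls numbered 326. The 279 calls also made without BLM replicate 3 numbered 1054 with DESeq2, 40 using group weights, 20 in the 8 libraries alone and 67 at a log2 fold change of at least 1. With the replicate number as a block, 370 identifiers were called (152 and 218), 93 of them also without BLM replicate 3. Whether the numbers pair the animals could not be told from these values. Same-numbered BLM and NINT animals correlated in their deviations at 0.03 to 0.20, and differently numbered ones at -0.15 to 0.12. Not every animal correlated best with its own number. Fits without 1 animal gave 17 to 2904 calls, 14 to 1414 higher and 3 to 1490 lower, and 16 to 738 called in both fits. Other scalings, at least 10 counts in every library, robust estimation and limma voom without group weights kept each of these counts within 1.5 times. ENSRNOG00000038132, ENSRNOG00000045989 and ENSRNOG00000034290 were called in every alternative that tested them, the filter of at least 10 counts in every library having removed the first. ENSRNOG00000053494 was not called in 6 of 23. No log2 fold change of these 4 reversed. The cause of these differences was not tested. Counts as low as 7 reads limit the precision of the largest fold.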
